A study of Drosophila melanogaster with 4 samples.

Results

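The genes nub (nubbin, also called pdm-1; locus tag CG34395) and pdm2 (CG12287) are neighbouring POU homeobox genes on chromosome arm 2L of Drosophila melanogaster. They were examined as the window from 12350000 to 12950000 on 2L, in the coordinates of FlyBase release 5, which is defined by position. The pair makes up 2 of the 17872 genes in the RefSeq gene table, and the 600-kb window makes up 2.61% of the 23.0 Mb of the arm. It held 34 of 10114 regions enriched for histone H3 dimethylated at lysine 27 (H3K27me2) in ChIP replicate 1, 35 of 10115 in replicate 2, and 68 of 16728 in the list made for the series as a whole.

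POU proteins bind DNA through a POU-specific domain joined to a POU homeodomain. nub and pdm2 are closely related copies known for overlapping roles in the embryonic nervous system, where they take part in the timed sequence of factors that gives neurons of one lineage different identities, and nub is also required for growth of the wing. H3K27me2 is placed by Polycomb repressive complex 2, the enzyme complex that also makes the trimethylated form found over silenced developmental genes, and the dimethyl form is known to be spread widely over the rest of the genome. The trimethyl form was not measured here.

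The material was head nuclei from adults (stage given as mixed adult) of Oregon-R, a wild-type laboratory strain. There were 2 ChIP samples made with the antibody Ab24684 and 2 inputs, 1 per ChIP replicate, with no treatment and no mutant. Separate fly collections for the replicates are not stated, so their spread may measure technique alone. Heads hold many cell types, so a mark on few cells and a weak mark on many cells cannot be told apart.

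The files are lists of enriched regions, each with its 2 ends and a score from the authors, and hold no read totals, so sequencing depth is unknown. A stretch outside every region is called uncovered here, and it is sequence without a call rather than sequence shown to lack the mark. The lists name no genes. Release 5 positions of nub and pdm2 were not used here, so regions and uncovered stretches are placed in the window and not on either gene. In the RefSeq table, which follows release 6 and served for gene order alone, 1 gene starts between them, Ref2, which codes for a protein of a messenger RNA export family. The noncoding RNA genes lncRNA:CR44596 and lncRNA:CR44595 start next before nub, and Nepl7, a neprilysin-like gene, and CCT4, which codes for a chaperonin subunit, start next after pdm2.

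The nub-pdm2 window was divided into 2 marked flanks by a long uncovered block near its middle. In replicate 1 the block ran from 12561157 to 12730385, a length of 169229 bp. In replicate 2 it ran from 12561724 to 12747136, a length of 185413 bp. In the series' list it ran from 12563986 to 12715779, a length of 151794 bp, and this last stretch was free of regions in all 3 lists. It made up 25.3% of the window. The replicates' blocks averaged 177321 bp (SD 11444, n = 2), and the difference between them came mostly from the right edge. The flanks held further uncovered stretches. With the block, those of at least 20 kb numbered 4 in replicate 1, 8 in replicate 2 and 2 in the series' list. Together they made up 304 kb, 415 kb and 213 kb of the window.

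**Figure D1:**
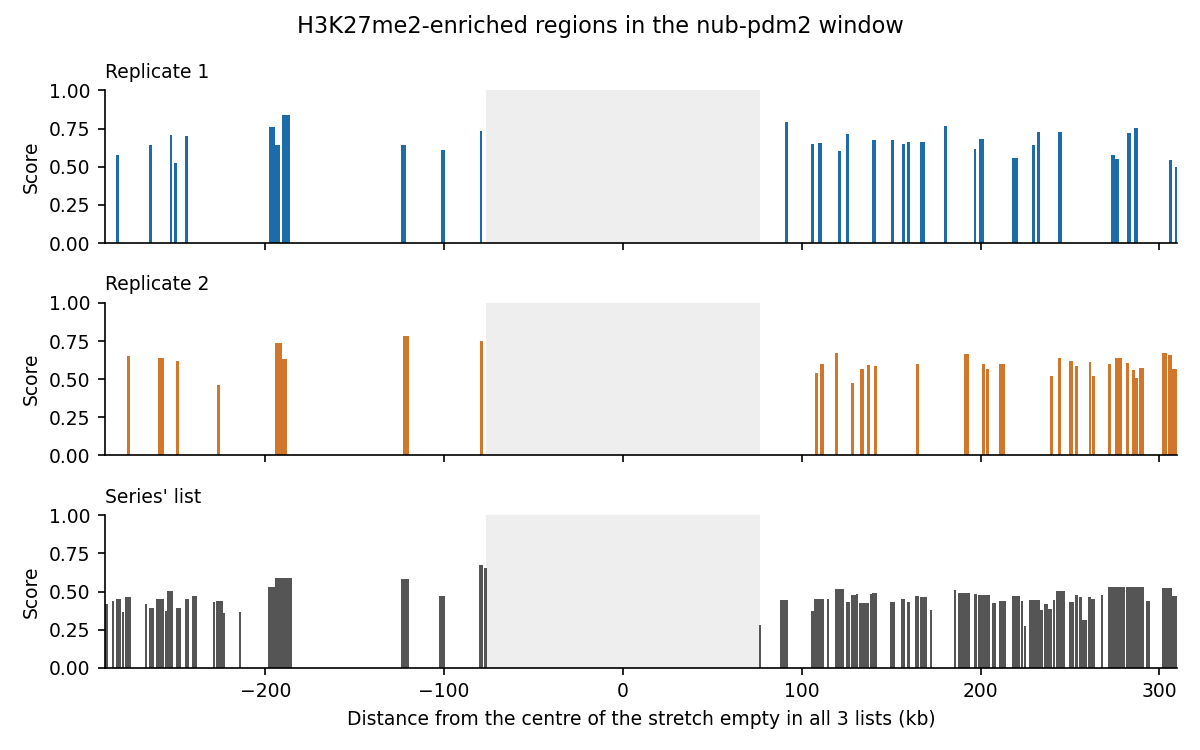
Enriched regions of the nub-pdm2 window in replicate 1, replicate 2 and the series' list. Each bar is 1 region, with its true width along the x axis (distance in kb from the centre of the stretch empty in all 3 lists) and the authors' score as its height; the grey band is the stretch of 151794 bp without a region in any list.

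Among all uncovered stretches of 2L, the block was the 7th longest of 1617 in replicate 1, the 5th of 1667 in replicate 2 and the 5th of 2854 in the series' list. The median stretch measured 4506 bp, 3858 bp and 1351 bp in the same lists. Stretches over 100 kb numbered 14, 20 and 6 on the arm, including the block. It is therefore a long block, but others on the arm are longer. The longest one of the series' list lay from 11284028 to 11499312 and measured 215285 bp.

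**Figure D2:**
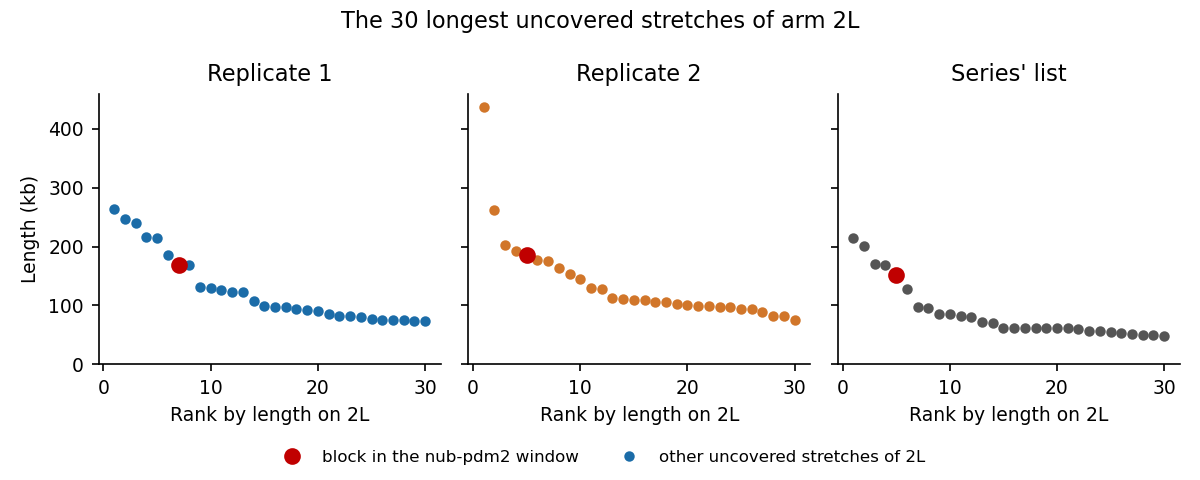
Length in kb (y axis) of the 30 longest uncovered stretches of 2L by rank (x axis) in each list. The red point is the block of the nub-pdm2 window, at rank 7 in replicate 1, rank 5 in replicate 2 and rank 5 in the series' list; points in each panel's own colour are the other stretches.

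The left edge of the block was placed almost identically in the replicates. The region that ends there spanned 12559686 to 12561156 in replicate 1 and 12559690 to 12561723 in replicate 2, so the edge differed by 567 bp. Its score was 0.74 in replicate 1 and 0.75 in replicate 2, at percentile 79.0 and 92.8 of the scores of 2L. In the series' list the same site was a region from 12559543 to 12561840 with a score of 0.67, followed by another from 12562243 to 12563985 with a score of 0.66. These were the 2 highest scores of the window in that list, at percentile 96.8 and 96.3 of 2L. The second of them touched no region of either replicate.

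The right edge lay at 3 different positions. The first region beyond the block began at 12730386 in replicate 1, with a score of 0.79 (percentile 89.9 of 2L). It began at 12747137 in replicate 2, with a score of 0.54 (percentile 23.7), a distance of 16.8 kb. In the series' list the block ended 14.6 kb before that of replicate 1 and 31.4 kb before that of replicate 2, at a region from 12715780 to 12717143. This region scored 0.28, and 19 of the 2855 regions of 2L in that list scored lower. In the series' list both edges of the block are thus set by a region found in neither replicate, with a high score on the left and a low one on the right. The replicates' own edge regions are also in the series' list, on both sides. On the right, that of replicate 1 lies within a region from 12727989 to 12731981. That of replicate 2 lies within a region from 12746902 to 12752154.

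For context, the distance between the replicates was measured at both edges of the other 9 uncovered stretches among the 10 longest of the series' list on 2L. These 18 distances ran from 124 bp to 150677 bp, with a median of 16.7 kb. Of them, 3 were smaller than the 567 bp at the left edge of the block, and 9 were smaller than the distance at its right edge. No test was made of this difference, since neither the edges nor the stretches are replicates.

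Cover outside the edges differed as well. Over the 50 kb to the left, regions covered 12.6% in replicate 1, 10.2% in replicate 2 and 22.1% in the series' list. Over the 50 kb to the right they covered 20.2%, 24.7% and 38.5%. On the left, the 10-kb steps at 10 to 20 kb and at 30 to 40 kb from the edge held no region in any list. On the right, each of the first 4 steps held regions in every list. The first step on either side holds cover by construction, since each list's edge is the end of a region.

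**Figure D3:**
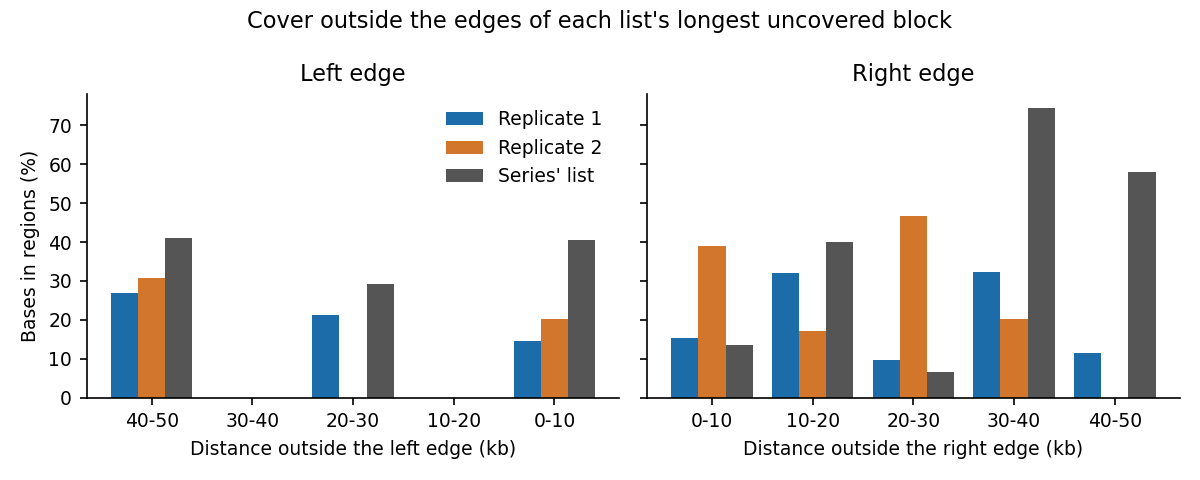
Share of bases in enriched regions (y axis, percent) in 10-kb steps outside the left and the right edge of each list's own uncovered block (x axis, distance from the edge in kb). Steps without bars hold no region. The left side has isolated steps with cover, and the right side has cover in the first 4 steps of all lists. The first step on either side has cover by construction.

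The sequence before the block carried few, isolated regions. From 12454852 to 12715779, a stretch of 261 kb that contains the block, replicate 1 had 3 regions, replicate 2 had 2 and the series' list had 4. They covered 2.41%, 1.96% and 4.24% of it. These shares are low in part by construction, since 151794 bp of the stretch are the part empty in all 3 lists. The first 61092 bp of the 261 kb, from 12454852 to 12515943, formed an uncovered stretch of their own in the series' list. Both replicates had a matching one, of 62265 bp in replicate 1 and 65013 bp in replicate 2.

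The isolated sites recurred between lists. At 12515944 to 12520037 in the series' list (score 0.58, percentile 92.0 of 2L), replicate 1 had a region from 12515921 to 12518615 with a score of 0.64 and replicate 2 one from 12517001 to 12520075 with a score of 0.78. The region of replicate 2 was the highest score of the window in replicate 2. A site at 12537159 to 12540080 was found in replicate 1, with a score of 0.61, and in the series' list, with a score of 0.47, but not in replicate 2. The sites at 12515944 and at the left edge are therefore common to all lists, and the one between them is not.

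At the far side of this sparse stretch stood the broadest marked site of the left flank. The series' list had a region of 9722 bp from 12445130 to 12454851, with a score of 0.59. In replicate 1 it was made of regions from 12445374 to 12448217 and from 12449144 to 12453655. The second of these was both the longest region of the window in that replicate (4512 bp) and the highest-scoring one (0.84, percentile 93.5 of 2L). In replicate 2 the site held regions from 12445307 to 12448976 (score 0.73) and from 12449319 to 12451987 (score 0.63).

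The right flank was marked more densely than the left. Between the window's start and the block, replicate 1 had 11 regions, replicate 2 had 8 and the series' list had 23, and they covered 11.96%, 9.18% and 29.1% of that flank. Between the block and the window's end there were 23, 27 and 45 regions, which covered 20.1%, 26.6% and 59.5%. Of the 50-kb bins, the last, from 12900000 to 12949999, had a cover of 22.2% (replicate 1) and 48.4% (replicate 2). It ranked first in replicate 2 alone, since replicate 1 had 22.4% in the bin from 12750000, and the series' list had 76.2% in the bin from 12850000 against 71.0% in the last. This bin also had the widest spread between replicates (mean 35.3% ± 18.5 SD, n = 2). It held the longest regions of the series' list in the window, from 12921151 to 12931205 (10055 bp, score 0.53) and from 12911015 to 12920760 (9746 bp, score 0.53), and the longest of replicate 2, from 12915088 to 12919213 (4126 bp, score 0.64).

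Cover by bin is given from left to right, with the bins from 12550000 and 12700000 lying partly in the block, which lowers their cover. The bins from 12350000 and 12400000 were covered to 15.0% ± 2.39 and 12.7% ± 1.82 (mean ± SD of the replicates, n = 2). The next 3 had 5.64% ± 2.36, 7.89% ± 2.47 and 3.51% ± 0.796 (n = 2). The bins from 12600000 and 12650000 were empty in every list. On the whole arm, 37 of 459 bins were empty in both replicates and 20 in all 3 lists. To the right, the bin from 12700000 had 6.24% ± 3.52, and the 3 after it had 21.7% ± 1.08, 16.5% ± 1.78 and 18.4% ± 1.58 (n = 2).

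**Figure D4:**
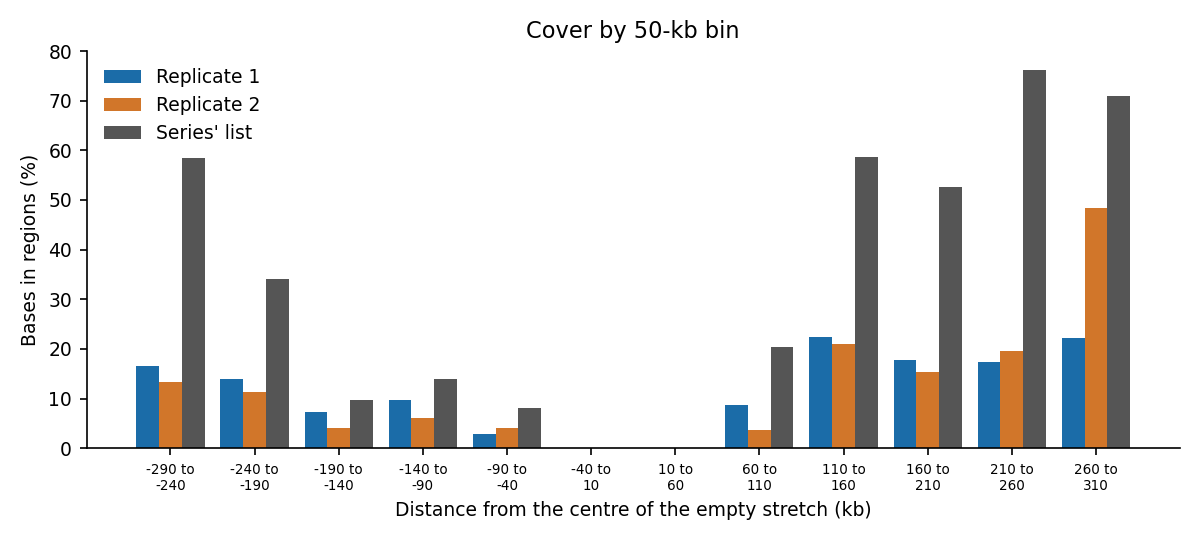
Share of bases in enriched regions (y axis, percent) in the 12 bins of 50 kb of the nub-pdm2 window (x axis, distance in kb from the centre of the empty stretch), for replicate 1, replicate 2 and the series' list. The 2 bins nearest the centre are empty in all lists, and the last bin has the largest gap between replicates, with 22.2% and 48.4%.

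Over its whole length the nub-pdm2 window was covered less than the rest of 2L. The share of the window in regions was 11.6% (replicate 1) and 12.2% (replicate 2), averaging 11.9% ± 0.456, against 17.9% and 18.0% of the rest of the arm, averaging 17.9% ± 0.0841 (SD, n = 2). The difference was -6.30 and -5.77 percentage points, which is larger than the spread between replicates. That spread does not measure how cover varies along the arm. In the series' list the window was covered to 33.6% and the rest of the arm to 41.1%. With 2 samples of 1 group there is no test of these differences.

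Low cover of this size was common on the arm. Of 449 windows of 600 kb taken every 50 kb along 2L, 83 had less cover than the nub-pdm2 window in replicate 1, 93 in replicate 2 and 117 in the series' list, or 18.5%, 20.7% and 26.1% of them. The median window had 16.9%, 16.5% and 41.3%. The windows overlap each other, so these ranks are descriptions. The 600 kb next before the nub-pdm2 window were covered to 16.7% ± 0.191 and the 600 kb next after it to 18.6% ± 2.33 (mean ± SD of the replicates, n = 2).

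**Figure D5:**
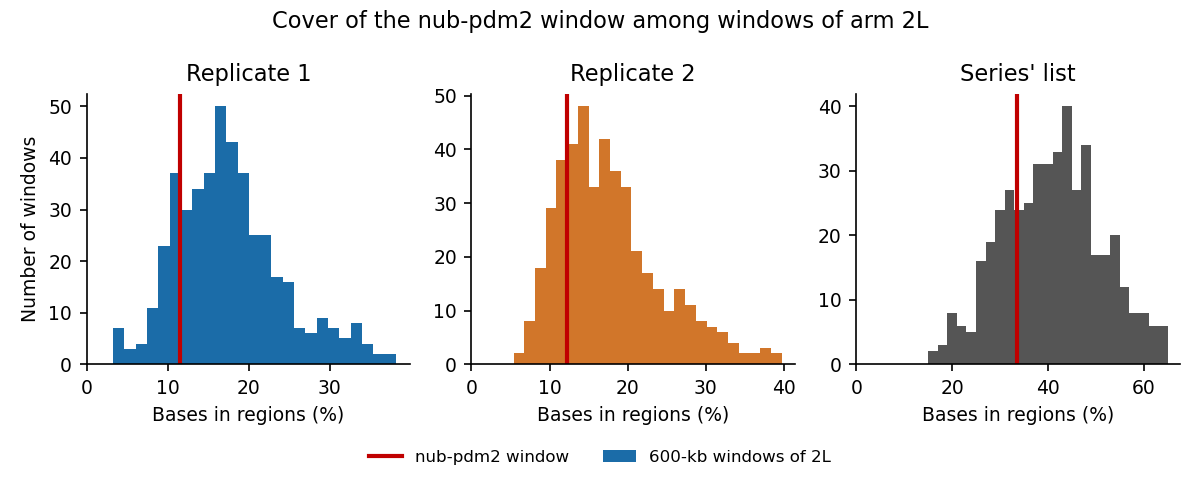
Number of 600-kb windows of 2L (y axis) by the share of their bases in enriched regions (x axis, percent), 1 panel per list. The red line is the nub-pdm2 window, at 11.6% in replicate 1, 12.2% in replicate 2 and 33.6% in the series' list, in the lower part of each distribution but not at its end.

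The difference depended on long empty stretches and on the list. When stretches over 100 kb were left out of both, the window was covered to 16.1% in replicate 1, 17.7% in replicate 2 and 45.0% in the series' list, and the rest of 2L to 19.9%, 20.8% and 42.8%. This removes the block by construction. In the replicates the window stayed below the rest of the arm, and in the series' list it lay above it.

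The window also held fewer regions per Mb, and in the replicates these were of ordinary length and score. There were 56.7 and 58.3 regions per Mb in the window and 70.7 and 72.9 per Mb in the rest of 2L (replicates 1 and 2). The median region was 1920 bp and 1808 bp long in the window, and 1920 bp and 1917 bp in the rest of the arm. The score has no stated scale, but each value equals, up to a shift shared by its list, log2 of a whole number over another. Window regions had a median score of 0.66 (replicate 1) and 0.60 (replicate 2), and those of the rest of 2L had 0.64 and 0.60. The differences of 0.020 and 0.00041 are small beside the range between the 25th and the 75th percentile in the window, 0.61 to 0.72 in replicate 1 and 0.57 to 0.64 in replicate 2. In the series' list the window had 113 regions per Mb against 124 in the rest of 2L. Regions of that list were longer in the window, with a median of 2344 bp against 2075 bp. Their median score was 0.45 against 0.43. No region of the window scored above 0.84 in replicate 1, 0.78 in replicate 2 or 0.67 in the series' list.

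The 2 whole numbers behind a score may be ChIP and input reads, although neither the headers nor the labels say so, and on that reading they set a lower bound on the reads in a region, since they are in lowest form. The longest region of the window in replicate 1 had terms of 616 and 263, and the longest in replicate 2 had 631 and 407. The low-scoring region at the right edge of the series' list had 84 and 61. The counting error on the log2 scale was at most 0.11, 0.092 and 0.24 for these regions. For the regions at the left edge it was at most 0.25 in replicate 1, 0.18 in replicate 2 and 0.41 in the series' list. For those at the right edge it was at most 0.52 in replicate 1 and 0.15 in replicate 2. The highest-scoring region of replicate 2, from 12517001, had terms of 12 and 7 and a counting error of at most 0.69. The region of replicate 1 from 12537974 had terms of 2 and 1 and a counting error of at most 1.77. Terms this small leave the precision of these 2 scores nearly unknown. These bounds cover counting alone.

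The replicates overlapped less in the nub-pdm2 window than on the rest of the arm. The Jaccard index, the bases in regions of both replicates divided by the bases in regions of either, was 0.179 in the window and 0.340 in the rest of 2L. The 21.6 kb in both made up 31.1% of the covered bases of replicate 1 in the window and 29.5% of those of replicate 2. On the rest of the arm the shares were 50.9% and 50.6%. Of the 449 windows of 2L, 21 (4.68%) had a lower index. Because the index can depend on cover, the window was also set beside the 82 windows that did not overlap it and whose mean cover was within 2 percentage points of its own. Their median index was 0.275, and 5 of them were lower. The index was 0.251 on the left of the empty stretch and 0.148 on its right.

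By region, 15 of 34 in replicate 1 (44.1%) and 17 of 35 in replicate 2 (48.6%) touched a region of the other replicate by at least 1 bp. In the rest of 2L the shares were 62.2% and 60.4%. On the left flank 5 of 11 regions of replicate 1 and 5 of 8 of replicate 2 were shared, and on the right flank 10 of 23 and 12 of 27.

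The regions of the series' list in the window touched a replicate about as often as elsewhere on the arm, 61.8% of them against 59.6% in the rest of 2L. Of 68 regions, 13 (19.1%) touched both replicates, 16 touched replicate 1 alone, 13 touched replicate 2 alone and 26 (38.2%) touched neither. In the rest of 2L, 26.2% touched both. The 13 found in both were longer and scored higher, with medians of 5235 bp and 0.51, than the 26 found in neither, with medians of 1250 bp and 0.43. A longer region touches a replicate more readily at 1 bp, so the difference in length is partly built in. The series' list covers the same ChIP samples as the replicates, so the difference in score is not independent either. These medians were computed for the window alone. Among replicate 1's own regions in the window, the median score was 0.656 for shared and 0.660 for other regions. In replicate 2 it was 0.616 and 0.594. In the rest of 2L, shared regions had the higher median score in both replicates. The medians there were 0.655 for shared and 0.619 for other regions in replicate 1, and 0.618 and 0.578 in replicate 2. On the left flank 4 of the 13 regions that touched both replicates were found, and the other 9 were on the right. The left flank held 23 regions of the series' list and the right flank 45, so the shares that touched both were similar. Those on the left were at 12389900 to 12392689, 12445130 to 12454851, 12515944 to 12520037 and 12559543 to 12561840.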

How the data were processed

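H3K27me2 ChIP-seq of head nuclei is represented by 3 GFF3 region lists, for replicate 1, replicate 2 and the whole series. Coordinates are FlyBase release 5, per the file headers. The submitters' processing notes name Bowtie 0.12.7. How regions were called, and how replicates and inputs were combined, is not given in the sources used here. The authors deposited a score for each region without a stated scale, and it was used within 1 list at a time. Depth per library is unknown.

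Cover was counted base by base with Python 3.11.15 and NumPy 2.4.6. Regions were assigned by their midpoint, and uncovered stretches of at least 20 kb were listed. Scores were read as log2 ratios of whole numbers (relative tolerance 1e-12, denominators up to 20000) less a shift of 0.39 in replicate 1, -0.0058 in replicate 2 and 0.18 in the series' list, the shift that gave the smallest whole numbers. This held for 100% of scores. Functions were tested on simulated data. Named regions were the 3 longest and 3 highest-scoring of each list in the window and those at the block's edges; other sites, the windows of similar cover and the omission of stretches over 100 kb were chosen after values were seen. The genes, window and named items were chosen with earlier results of these data known. No release 5 annotation or sequence was used, so cover of gene bodies and promoter motifs were not computed.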

Additional observations from a re-analysis of the deposited data

How the results depend on the processing

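No paired analysis was possible because only the ChIP samples have region lists, so an input has nothing to be paired with. With 2 replicates, leaving out 1 returns the values of the other, so this setting is no separate check. It gave a window cover of 11.6% to 12.2% and a difference from the rest of 2L of -6.30 to -5.77 percentage points. It also gave 56.7 to 58.3 regions per Mb, a block of 169229 to 185413 bp and a median score difference of 0.00041 to 0.020. The series' list gave 33.6%, -7.50 points, 113 regions per Mb and a block of 151794 bp, with 46.0% and 39.9% in the 600 kb before and after the window. Regions above the median score of their whole list, not of 2L, gave 5.35%, -4.01 points and 22.5 regions per Mb. The share of regions above that median on the rest of 2L is not given here. The same setting gave a Jaccard index of 0.0985 and a right edge 28.3 kb apart between replicates. The left edge stayed 0.567 kb apart by construction, since its regions, which scored 0.74 and 0.75 in replicates 1 and 2, were kept. The right edge moved in replicate 2, whose region there scored 0.54 and was left out. Merging regions closer than 1 kb gave 49.2 regions per Mb and an index of 0.191. A window 100 kb shorter at each end gave 7.69%, -10.3 points, 38.7 regions per Mb and an index of 0.164, as the block then fills more of it. Asking for 50% reciprocal overlap left 23.2% of the window's regions shared, against 46.3% (mean of the replicates). This share and the index under these settings were computed for the window alone, so they cannot be set beside the rest of 2L. The difference in cover was negative in each of these settings that gave one, and without the last 2 Mb of the arm (-5.86). With stretches over 100 kb left out, a setting chosen after seeing the data, it was -3.44 in the replicates and turned to 2.19 in the series' list; this setting removes the block by construction. Unknown depth limits what an uncovered stretch can show.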

Other observations

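All 35 regions of replicate 2 in the window and 33 of the 34 of replicate 1 touched a region of the series' list. That list covers the same ChIP samples, so the overlap is not independent, and the share in the rest of 2L is not given here. The other region of replicate 1, from 12819699 to 12821100, scored 0.77, the third highest of the window in that replicate, and touched neither replicate 2 nor the series' list. Its counting error was at most 0.48, with terms of 29 and 13.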
